A study of Xenopus laevis with 3 samples.

Results

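The microRNAs described here are miR-17, miR-20, miR-93 and miR-106, which are known as 1 seed family, and miR-18, which is encoded beside them. They were taken by name from a deposited table of mature microRNA read counts: every entry with a Xenopus prefix (xtr for X. tropicalis, xla for X. laevis, xbo for X. borealis) and one of these family numbers. This gave 11 of 178 listed Xenopus entries, or 9 of 170 distinct Xenopus sequences, in a table of 1272 entries of many species. xla-miR-18 and xtr-miR-18b were 1 sequence with the same counts, as were xla-miR-20 and xtr-miR-20b, so these pairs are 1 measurement each and are given under their X. tropicalis names. The 9 sequences comprise 7 from the guide arm, the strand that usually enters the silencing complex, and the opposite 3p arms of miR-17 and miR-18a. All 11 entries passed the minimum of 30 counts summed over the libraries.

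The RNA came from the accessory olfactory bulb, where axons of the vomeronasal organ end in the forebrain. Neuronal tissue was dissected from frozen sections of 50 µm of Xenopus laevis larvae at stage 45 and 15 days of age. The larvae had been raised in orphan, non-sibling or sibling conditions, with 1 library per condition, and it is not clear from the labels if their 15 larvae are the number per condition or in all. No strain, transgene or agent is named in the labels for any of the 3 conditions, and the rearing itself is not described beyond these words. The study concerns microRNA control of transmitter switching and social preference, and the comparisons here ask whether the miR-17 family and miR-18 differed with rearing. With 1 library per condition there is no replicate check and no p-value, and every difference describes these libraries. All intervals are 95% intervals and cover counting error only. They treat reads as independent, which amplified reads are not, so they can be too narrow even for that error.

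In vertebrates the miR-17-92 cluster encodes miR-17, miR-18a, miR-19a, miR-20a, miR-19b and miR-92a on a single primary transcript, and paralogous clusters carry miR-106a, miR-18b, miR-20b and miR-363, or miR-106b, miR-93 and miR-25. A microRNA finds its targets mainly through its seed, the bases 2 to 8 from its 5′ end, so that miRNAs with a common seed can act on common messages. In mammals these microRNAs promote proliferation and cell survival, the pro-apoptotic gene Bim being a well-known target, and in the mouse the cluster supports the expansion of neural progenitors. miR-18 is transcribed with them but has another seed.

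The mature sequences below are those listed in the deposited table, 5′ to 3′, with bases 2 to 8 in capitals. They are shown because the members differ by few bases, which bears on whether their reads can be told apart.
xtr-miR-17-5p: cAAAGUGCuuacagugcagguagu
xtr-miR-20a-5p: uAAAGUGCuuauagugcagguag
xtr-miR-20b: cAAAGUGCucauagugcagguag
xtr-miR-106: aAAAGUGCuuauagugcagguaga
xtr-miR-93a: aAAGUGCUguucgugcagguag
cfa-miR-93: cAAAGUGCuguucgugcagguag
xtr-miR-18a-5p: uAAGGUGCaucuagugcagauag
xtr-miR-18b: uAAGGUGCaucuagugcaguuag
xtr-miR-17-3p: aCUGCAGUgaaggcacuugu
xtr-miR-18a-3p: aCUGCCCUaagugcuccuucu

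miR-17-5p, miR-20a-5p, miR-20b and miR-106 shared the seed AAAGUGC. The entry xtr-miR-93a began 1 base later than the dog entry cfa-miR-93, so its bases 2 to 8 read AAGUGCU, although it held AAAGUGC from its first base. The stretch GUGCAGGUAG was common to the 5 guide arms of miR-17, miR-20a, miR-20b, miR-93a and miR-106 and to no other of the 170 distinct Xenopus sequences (2.94%). Counted from 1 at the 5′ end of miR-17-5p, miR-20a-5p differed from it by C1U and C12U, and miR-20b by U10C and C12U. miR-106 differed by C1A, C12U and U24A, and miR-93a by 4 substitutions over 22 aligned bases. Each miR-18 guide arm differed from miR-17-5p by 6 substitutions over 23 bases, A4G inside the seed among them, and the 2 miR-18 guide arms differed from each other by A20U. Within the Xenopus entries, AAAGUGC at bases 2 to 8 was found in 1 further sequence, xtr-miR-427, a microRNA known in Xenopus for clearing maternal messages in the early embryo, and AAGUGCU was found in xla-miR-427, xtr-miR-428 and xtr-miR-302.

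Reads of close sequences that differed by a substitution were largely kept apart in the counts. Entries of other species that differed from a Xenopus member by 1 substitution, with a shift of at most 1 base allowed, and that matched no Xenopus member exactly, numbered 10, and their summed counts over the 3 libraries lay between 1 and 10. The zebrafish entry dre-miR-20b, which differs from xtr-miR-20b by U12C, had 2 counts in all, against 4632 for xtr-miR-20b. The lamprey entry pma-miR-20a-5p, which differs from xtr-miR-20a-5p by U1C, had 9 counts, against 2196. Such neighbours held at most 0.949% of the count of a guide arm and at most 2.67% of that of a 3p arm. Identical sequences could still differ in count. age-miR-93, with the sequence of xtr-miR-93a, had 8789 counts in the orphan, 3301 in the non-sibling and 260 in the sibling library, and its sum was 13.6% above that of xtr-miR-93a, the largest such gap among the 8 shared sequences of these family numbers. The entries bta-miR-93, cfa-miR-93 and sha-miR-93, which begin 1 base earlier, had the same counts as age-miR-93. The counts thus do not separate these starts, and AAGUGCU for miR-93a describes the listed sequence only.

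The total count was 22538325 in the orphan, 5188106 in the non-sibling and 865654 in the sibling library, and the 9 distinct members together had 18988, 6602 and 528 counts there. Levels are given as scaled CPM, for which counts are divided by a library size adjusted by trimmed means of M values (TMM), and a single count stood for 0.0472 scaled CPM in the orphan, 0.148 in the non-sibling and 1.41 in the sibling library. The sibling library therefore limits every comparison with it. microRNAs known from neurons (miR-124, miR-9, miR-128, miR-137 and miR-218, 9 distinct sequences) summed to 15975 scaled CPM in the orphan, 18604 in the non-sibling and 9421 in the sibling library, with none at 0. Of these 9, miR-9a-5p and miR-9-5p had equal counts, each at 6657, 8197 and 4013 scaled CPM in these libraries. They are close to 1 measurement that enters the neuron sums more than once, so these sums are too high beside those of other tissues. microRNAs of other tissues were present too. In the orphan, non-sibling and sibling libraries those of sensory organs summed to 53956, 28840 and 34058 scaled CPM, of retina and choroid plexus to 13308, 9639 and 21959, of epithelium to 5034, 7618 and 5994, and of muscle to 4785, 2726 and 4426. miR-182-5p alone gave most of each sensory organ sum, at 37791, 21657 and 21923 scaled CPM. The retina and choroid plexus value was that of miR-204 alone, as miR-211 had no entry to count. In the same 3 libraries the gut list summed to 460.4, 1311 and 1323 scaled CPM, the ciliated cell list (without miR-34c, which had no entry) to 89.0, 388.1 and 207.1, the erythrocyte list to 18.9, 32.2 and 8.45, and the leukocyte list to 16.6, 27.6 and 9.86. The part of this tissue make-up in the results below was not tested, and in such bulk tissue fewer cells of a type and less RNA per cell cannot be told apart.

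miR-93a led the members in every library, followed by miR-17-5p, miR-20b and miR-20a-5p. xtr-miR-93a had 7721 counts in the orphan, 2921 in the non-sibling and 233 in the sibling library, or 364.8, 433.7 and 328.2 scaled CPM. It stood at place 52, 47 and 54 among the 170 Xenopus sequences in these libraries. xtr-miR-17-5p, the founding member of the family, had 3954 counts (186.8 scaled CPM) in the orphan, 1246 (185.0) in the non-sibling and 97 (136.6) in the sibling library. Both levels were lowest in the sibling library; the orphan level lay by the non-sibling level for miR-17-5p, but nearer the sibling level for miR-93a.

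xtr-miR-20b had 3328 counts in the orphan, 1242 in the non-sibling and 62 in the sibling library, or 157.2, 184.4 and 87.3 scaled CPM. xtr-miR-20a-5p had 1624 counts (76.7 scaled CPM) in the orphan, 531 (78.8) in the non-sibling and 41 (57.8) in the sibling library. xtr-miR-106 had 709, 215 and 24 counts, or 33.5 scaled CPM in the orphan, 31.9 in the non-sibling and 33.8 in the sibling library. Of the 5 microRNAs of the miR-17 family, miR-20b was the one whose sibling level lay furthest below the other libraries, and miR-106 had the narrowest spread over the 3.

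xtr-miR-18a-5p had 746 counts in the orphan, 185 in the non-sibling and 21 in the sibling library, or 35.2, 27.5 and 29.6 scaled CPM. xtr-miR-18b had 545 counts (25.7 scaled CPM) in the orphan, 159 (23.6) in the non-sibling and 15 (21.1) in the sibling library. Neighbours in the order were not always separated: miR-17-5p and miR-20b had nearly equal counts in the non-sibling library, and the counting intervals of miR-106, miR-18a-5p and miR-18b overlapped in the sibling library. All 9 sequences are 20 to 24 bases long, so length changes little between them, but these are read counts, and how efficiently each sequence entered the libraries was not measured.

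**Figure D1:**
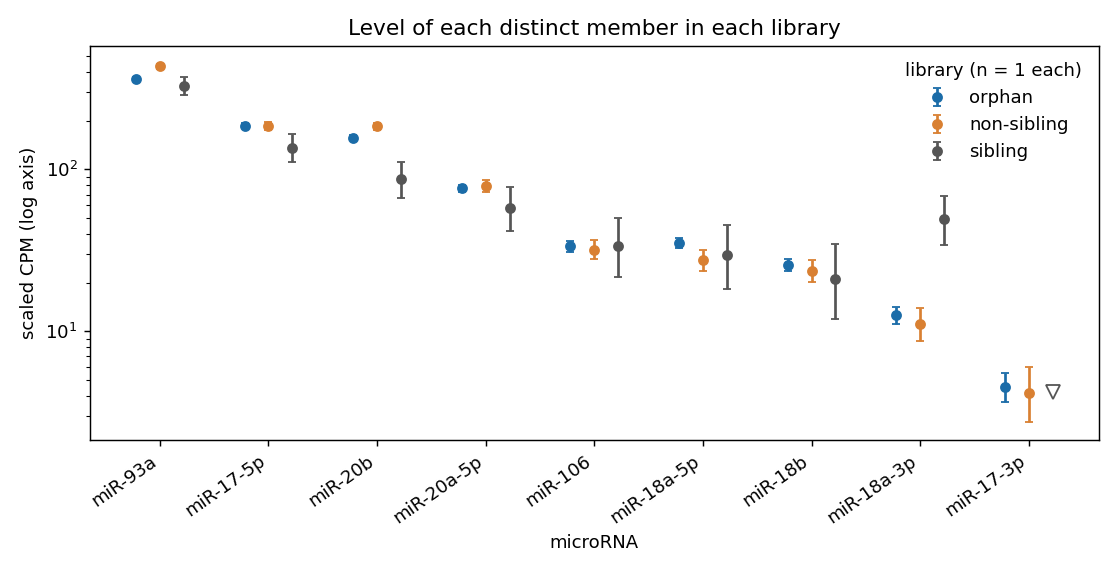
Level of each of the 9 distinct sequences in scaled CPM (log axis) in the orphan, non-sibling and sibling libraries, 1 library each. Points are levels, bars are exact Poisson 95% intervals of the count, and the open triangle marks the level of 3 counts for miR-17-3p, which had none in the sibling library; miR-18a-3p is the member whose sibling level (49.3) lies far above the others (12.5 and 11.1).

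Orphan and sibling larvae were set against each other to ask whether these microRNAs differ between those rearing conditions. In the orphan library the guide arms lay close to or above the sibling level, with ratios between 0.991 for miR-106 and 1.80 for miR-20b, and none reached 2-fold, although under total counts the log2 ratio of miR-20b was 1.03, past 2-fold. xtr-miR-18a-3p, the opposite arm of miR-18a, was lower. Calls here require a ratio of 2 or more (0.5 or less) together with a counting interval on 1 side of 1. By that size rule 1 of 9 distinct members differed, against 23.1% of the 156 distinct Xenopus sequences with enough counts (13.5% lower, 9.62% higher) and 24.8% of all 866 entries used. The median log2 ratio was 0.24 for the 9 members (0.22 with miR-17-3p, which had no sibling count, set against a floor of 3 counts) and 0.16 for the 156 Xenopus sequences (0.14 with those at 0 set against that floor).

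miR-20b was 1.80 times as high in the orphan as in the sibling library (interval 1.40 to 2.35), and miR-17-5p 1.37 times (1.12 to 1.69). miR-20a-5p was 1.33 times as high (0.975 to 1.86) and miR-93a 1.11 times (0.975 to 1.27), both with intervals that included 1. The 4 distinct sequences with the seed AAAGUGC summed to 454.2 scaled CPM in the orphan library and 315.5 in the sibling library. Their ratio was 1.44 (1.26 to 1.65), short of 2-fold. With miR-93a added to the sum, a choice made after seeing the data, it was 1.27 (1.16 to 1.40). The 2 miR-18 guide arms summed to 61.0 scaled CPM in the orphan library and 50.7 in the sibling library, with a quotient of 1.20 (0.864 to 1.73).

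The same question was put to the non-sibling condition, with the sibling library again as the base, so that both comparisons share it. miR-20b was higher in the non-sibling library, at 2.11 times the sibling level (1.64 to 2.77), and miR-18a-3p was lower. These were 2 of 9 distinct members, against 25.0% of the 156 Xenopus sequences (14.1% higher, 10.9% lower) and 23.3% of all entries. The call for miR-20b rests on 62 sibling counts and on the scaling: its log2 ratio of 1.07 became 0.82 with upper-quartile scaling, 0.91 with the authors' quantile-normalized values and 0.97 with 5 counts added, each under 2-fold. The median log2 ratio was 0.40 for the 9 members (0.12 with miR-17-3p set against the floor) and 0.07 for the 156 Xenopus sequences (0.06 likewise).

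miR-17-5p was 1.35 times as high in the non-sibling as in the sibling library (1.10 to 1.68), miR-20a-5p 1.37 times (0.993 to 1.92) and miR-93a 1.32 times (1.16 to 1.52). miR-106, at 0.944 times the sibling level (0.618 to 1.51), and miR-18a-5p, at 0.928 times (0.590 to 1.54), lay on the other side of 1 with intervals that included it. The sequences with the seed AAAGUGC summed to 480.1 scaled CPM in the non-sibling and 315.5 in the sibling library, with a quotient of 1.52 (1.33 to 1.75). That log2 ratio of 0.60 became 1.27, past 2-fold, when libraries were scaled by total counts. With miR-93a added to the sum, the quotient was 1.42 (1.29 to 1.56). The miR-18 guide arms summed to 51.1 scaled CPM in the non-sibling and 50.7 in the sibling library, with a quotient of 1.01 (0.713 to 1.46).

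Between the orphan and the non-sibling library, the deeper pair, none of the 9 members differed by the size rule, and this held under every scaling tried, whereas 22.4% of the 156 Xenopus sequences and 20.7% of all entries did. All 7 guide arms had ratios between 0.841 (miR-93a, 0.806 to 0.878) and 1.28 (miR-18a-5p, 1.09 to 1.52), and the counting intervals of all 7 lay inside the 2-fold limits. miR-17-5p was nearly equal, with a ratio of 1.01 (0.947 to 1.08). The median log2 ratio was 0.07 for the 9 members and 0.11 for the 156 Xenopus sequences. The sequences with the seed AAAGUGC had a ratio of 0.946 (0.909 to 0.985) and the miR-18 guide arms one of 1.19 (1.06 to 1.35), but either sign depended on the scaling: the log2 ratio of the first was -0.55 under total counts and 0.17 under upper-quartile scaling, and that of miR-18 was -0.21 and 0.50.

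**Figure D2:**
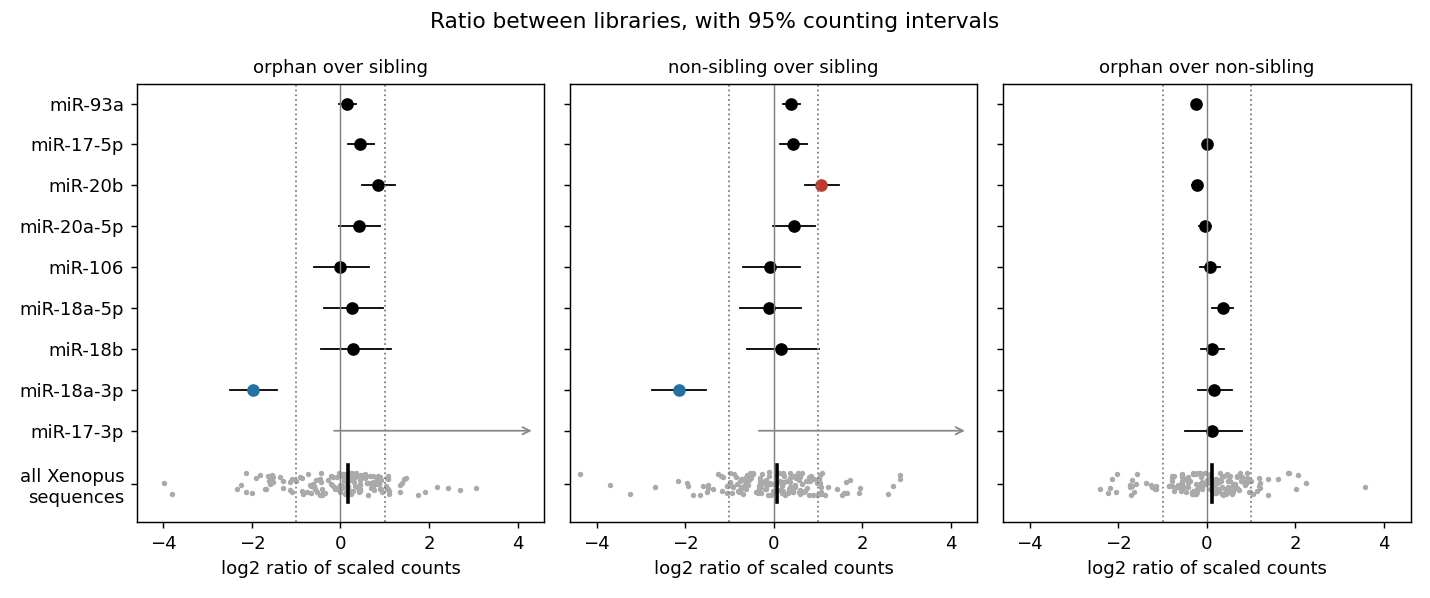
Log2 ratio of scaled counts of each distinct member in the 3 comparisons, with exact 95% counting intervals as bars; dotted lines mark 2-fold, red and blue points are higher and lower by the size rule, and arrows mark miR-17-3p, which has only a lower limit. Grey dots are the 156 distinct Xenopus sequences (0.5 added to each count) with their median as a black line; miR-18a-3p lies near -2 in both comparisons with sibling, while in orphan over non-sibling the members lie between -0.25 and 0.36.

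Because all members are counted in the same library, their proportions do not depend on how libraries are scaled. miR-93a made up 40.7% of the members' counts in the orphan library (40.0 to 41.4%, exact binomial interval), 44.2% in the non-sibling library (43.0 to 45.5%) and 44.1% in the sibling library (39.8 to 48.5%). miR-17-5p made up 20.8%, 18.9% and 18.4% in the same libraries. miR-20b made up 17.5% in the orphan library (17.0 to 18.1%) next to 18.8% in the non-sibling library (17.9 to 19.8%), against 11.7% in the sibling library (9.12 to 14.8%). The sibling library thus stood apart by a smaller share of miR-20b and a larger share of miR-18a-3p. Between the orphan and non-sibling libraries the intervals did not overlap for miR-93a. The same held for miR-17-5p (20.2 to 21.4% and 17.9 to 19.8%) and miR-18a-5p (3.66 to 4.21% and 2.42 to 3.23%). Such separation was common at these depths. For the ratio of scaled counts in orphan over non-sibling, the counting interval excluded 1 for 133 of the 156 Xenopus sequences and for 3 of the 9 members.

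The counts of miR-93a were 2.32 times those of miR-20b in the orphan library (2.23 to 2.42), 2.35 times in the non-sibling library (2.20 to 2.52) and 3.76 times in the sibling library (2.83 to 5.06). Per count of miR-17-5p, miR-93a had 1.95 counts in the orphan library (1.88 to 2.03). It had 2.34 in the non-sibling library (2.19 to 2.51) and 2.40 in the sibling library (1.89 to 3.08). The miR-18 guide arms had 0.134 counts per count of the AAAGUGC sequences in the orphan library (0.127 to 0.142), 0.106 in the non-sibling library (0.0949 to 0.119) and 0.161 in the sibling library (0.110 to 0.229). The orphan and non-sibling intervals of this ratio did not overlap, and the sibling interval overlapped both.

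**Figure D3:**
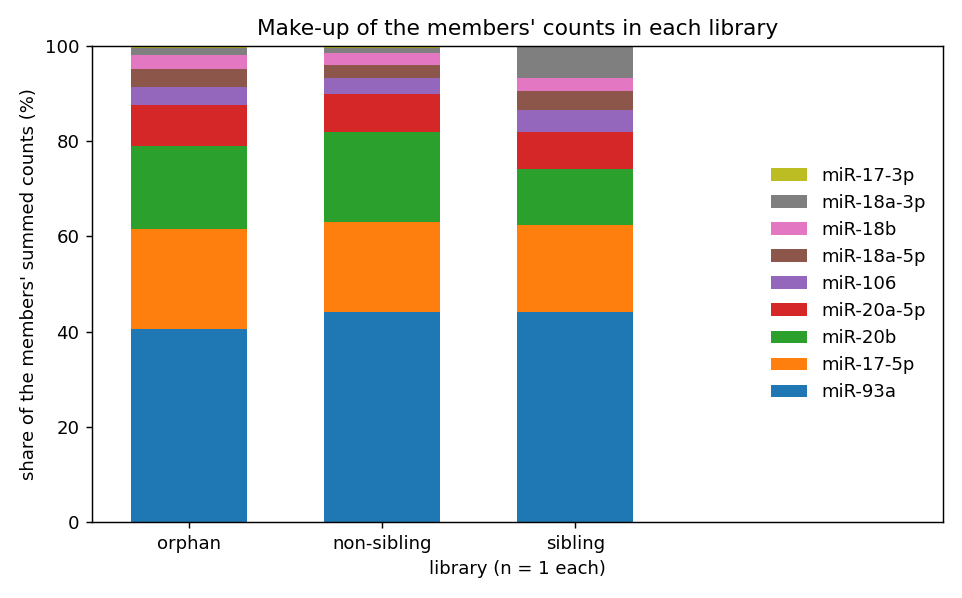
Share of each distinct member in the members' summed counts (per cent) in the orphan (18988 counts), non-sibling (6602) and sibling (528) libraries, stacked to 100. miR-93a is the largest part in each bar, and miR-18a-3p takes 6.63% of the sibling bar, against 1.40% of the orphan and 1.14% of the non-sibling bar.

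Of the 3p arms, which are usually the less abundant strand, miR-18a-3p differed from its guide arm in pattern. It had 265 counts in the orphan, 75 in the non-sibling and 35 in the sibling library, or 12.5, 11.1 and 49.3 scaled CPM. Its level was thus 0.254 times the sibling level in the orphan library (0.178 to 0.372) next to 0.226 times in the non-sibling library (0.149 to 0.348), with 1.12 between the orphan and non-sibling libraries (0.867 to 1.47). In the authors' deposited table, whose ratios run the other way for orphan, the log2 ratio of quantile-normalized counts for miR-18a-3p was 1.19 for sibling over orphan and -1.36 for non-sibling over sibling. Those ratios include an offset that is not stated. Without an offset, the quantile-normalized counts gave log2 ratios of -1.74 in orphan over sibling and -2.06 in non-sibling over sibling. The call for miR-18a-3p was kept under all scalings tried in both comparisons.

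Within each library, where scaling has no part, miR-18a-3p held 26.2% of the counts of both arms of miR-18a in the orphan library (23.5 to 29.0%) next to 28.8% in the non-sibling library (23.4 to 34.8%), against 62.5% in the sibling library (48.5 to 75.1%). The sibling share rests on 35 and 21 counts. Of 13 X. tropicalis precursors with both arms listed and at least 30 counts on each, mir-18a was the only 1 whose more abundant arm in the sibling library was not that of the orphan and non-sibling libraries, though the sibling interval includes 50%. Several of the 13, such as mir-182 and mir-22, had nearly all counts on 1 arm in each library and left little room for such a change. A changed 3p share in the sibling library was not particular to mir-18a. In the orphan, non-sibling and sibling libraries it was 4.15%, 3.08% and 9.64% for mir-30a, and 65.9%, 69.2% and 74.97% for mir-199a. It was 39.4%, 46.3% and 28.01% for mir-126, and 0.404%, 0.447% and 0.283% for mir-181a-1. For these precursors the sibling interval overlapped neither of the others. The 3p share of mir-449b was also higher in the sibling library, at 42.9% on 3 and 4 counts. It was 16.8% in the orphan and 19.5% in the non-sibling library. The 3p share was higher in the sibling than in the orphan library for 7 of these 13 precursors, so the arms did not move in 1 direction as a group.

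miR-18a-3p also has the highest GC content of the members, 52.4%, and the sibling library stood apart for sequences of high GC content. The 24 distinct Xenopus sequences with at least that GC content include miR-18a-3p itself, which is among those called lower in both comparisons with sibling. These 24 had a median log2 ratio of -0.61 in orphan over sibling, with 7 lower and none higher, whereas the other 132 had a median of 0.23, with 14 lower and 15 higher. In non-sibling over sibling the 24 had a median of -0.71, with 6 lower and 2 higher, and the other 132 one of 0.21, with 11 lower and 20 higher. miR-93a and miR-17-3p had a GC content of 50.0%, and the guide arms of miR-18 43.5%. The part of GC content in the result for miR-18a-3p was not tested.

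xtr-miR-17-3p had 96 counts in the orphan, 28 in the non-sibling and 0 in the sibling library, or 4.54, 4.16 and 0 scaled CPM. The exact Poisson upper limit of a count of 0 was 5.20 scaled CPM in the sibling library, above the levels of both other libraries. The interval of the ratio to the sibling level began at 0.856 for the orphan and 0.748 for the non-sibling library, so neither was separated from it. miR-17-3p held 2.37% of the counts of both arms of miR-17 in the orphan library (1.92 to 2.89%) next to 2.20% in the non-sibling library (1.47 to 3.16%). In the sibling library the share was 0 of 97 counts, which allows up to 3.09% by the floor of 3 counts and up to 3.73% by the exact binomial interval used for the other libraries, so a difference was not detectable at this depth.

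**Figure D4:**
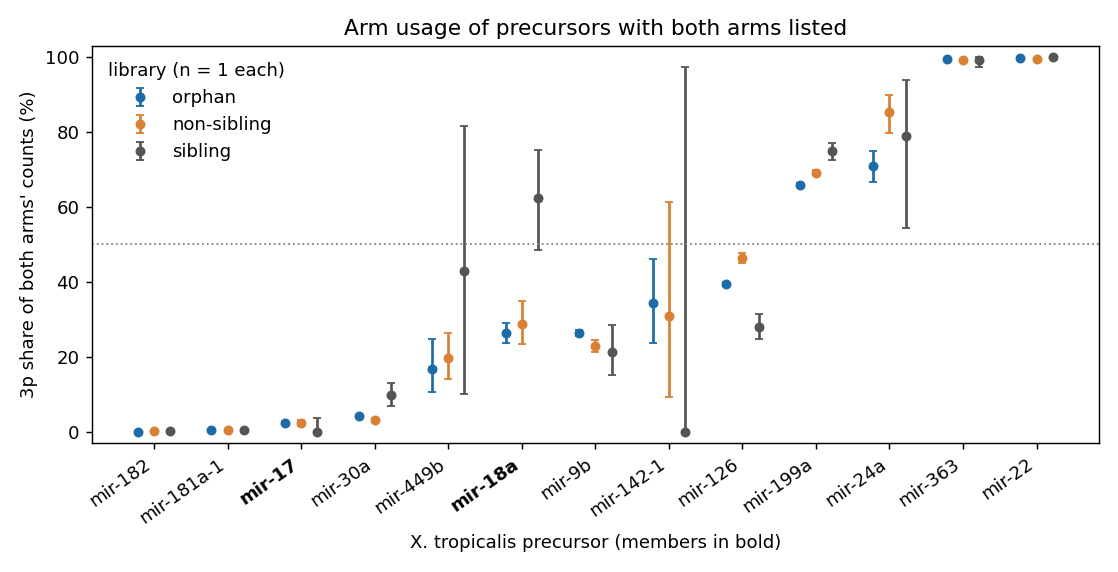
Share of the 3p arm in the counts of both arms (per cent) of 13 X. tropicalis precursors in the orphan, non-sibling and sibling libraries, with exact binomial 95% intervals as bars; the dotted line marks 50%. mir-18a lies at 26.2%, 28.8% and 62.5% in these libraries, and mir-17 at 2.37%, 2.20% and 0%.

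The microRNAs taken as cluster partners by family number, miR-19, miR-25, miR-92 and miR-363, did not as a list form a common pattern with the members. Of their 8 distinct Xenopus sequences with enough counts, 1 was higher and 3 were lower in orphan over sibling (median log2 ratio 0.26), none was higher and 4 were lower in non-sibling over sibling (-1.12), and 2 were higher and none lower in orphan over non-sibling (0.33). Of the 156 Xenopus sequences, 23.1%, 25.0% and 22.4% were called in these comparisons. The listed sequences lower in orphan over sibling were all of the miR-92 family: xtr-miR-92a, xtr-miR-92b and xbo-miR-92a. The same sequences and xtr-miR-19a were those lower in non-sibling over sibling. The 2 most abundant sequences of the list in the orphan library were xtr-miR-92a and xtr-miR-92b. Of these, miR-92b was listed by its number and is not among the microRNAs of the clusters named above. Its values therefore do not describe microRNAs of a shared transcript. miR-92a stood at 0.408 times the sibling level in the orphan library and 0.332 times in the non-sibling library, and miR-92b at 0.0627 and 0.0486 times in these libraries. xbo-miR-92a stood at 0.0719 and 0.0769 times there, nearer miR-92b than xtr-miR-92a. The calls and medians above thus describe the list, not microRNAs known to share a transcript. miR-25 lay near the AAAGUGC sum, with ratios of 1.36 in orphan over sibling, 1.52 in non-sibling over sibling and 0.897 in orphan over non-sibling.

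Ratios within a library show the same without scaling. miR-25, which shares a cluster with miR-93 in mammals, had 1.39 counts per count of miR-93a in the orphan library (1.35 to 1.43), 1.30 in the non-sibling library (1.24 to 1.36) and 1.13 in the sibling library (0.946 to 1.36). miR-19b, which lies between miR-20a and miR-92a in the miR-17-92 transcript of vertebrates, had 0.172 counts per count of the AAAGUGC sequences in the orphan library (0.163 to 0.181), 0.0628 in the non-sibling library (0.0542 to 0.0724) and 0.147 in the sibling library (0.0990 to 0.213). miR-92a had 19.1 counts per count of the AAAGUGC sequences in the orphan library, 14.7 in the non-sibling library and 67.3 in the sibling library (59.0 to 77.2). miR-25 thus stayed close to miR-93a. miR-19b was low beside the AAAGUGC sequences, which leave out miR-93a, in the non-sibling library, and miR-92a was high beside them in the sibling library.

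**Figure D5:**
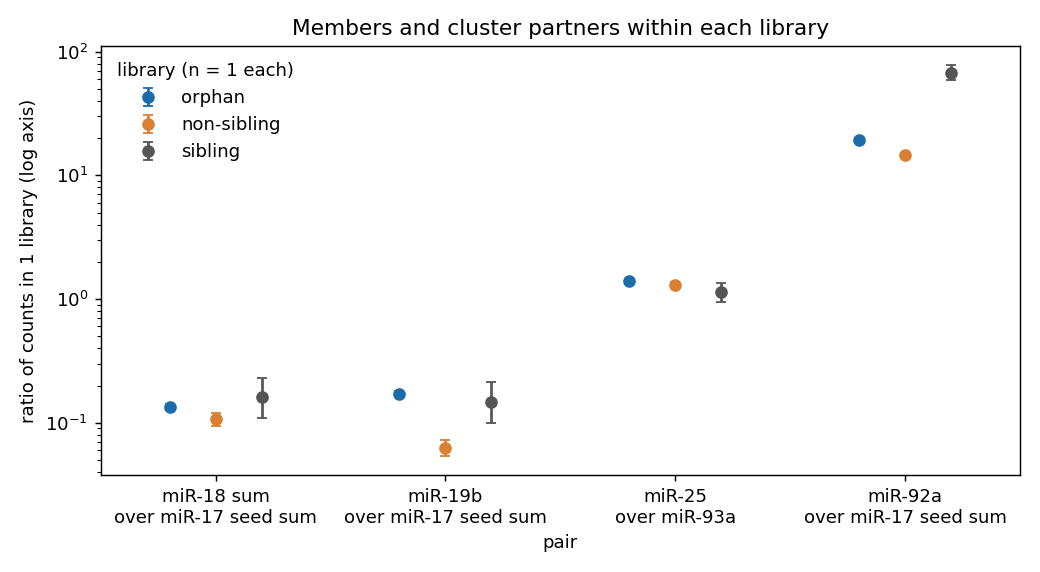
Ratio of counts (log axis) between microRNAs encoded in the same clusters, in the orphan, non-sibling and sibling libraries, with exact 95% counting intervals as bars. miR-19b over the AAAGUGC sequences is lowest in the non-sibling library (0.0628), and miR-92a over them is highest in the sibling library (67.3).

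miR-427 and miR-302, embryonic microRNAs with overlapping seeds, were counted too. Their listed sequences were as follows, with bases 2 to 8 in capitals, and show the shifted start that xla-miR-427 and xtr-miR-93a have in common.
xtr-miR-427: gAAAGUGCuuucuguuuugggcg
xla-miR-427: aAAGUGCUuucuguuuugggcg
xtr-miR-302: uAAGUGCUccaauguuuuagugg

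xtr-miR-427 had 1152 counts (54.4 scaled CPM) in the orphan, 456 (67.7) in the non-sibling and 35 (49.3) in the sibling library, and xla-miR-427 had nearly the same counts (1149, 456 and 35). xtr-miR-302, known from pluripotent cells, had 150, 51 and 3 counts. None of the 3 sequences differed by the size rule in any comparison, against 23.1%, 25.0% and 22.4% of the 156 Xenopus sequences. The 2 miR-427 sequences differ only in the first base of the X. tropicalis entry, so they are close to 1 measurement. The median log2 ratios of the 3 sequences were therefore those of xtr-miR-427. They were 0.12 for orphan over sibling, 0.44 for non-sibling over sibling and -0.32 for orphan over non-sibling. By distance between centred log2 levels over the 3 libraries, the Xenopus entries most like the summed AAAGUGC sequences were xtr-miR-302 (distance 0.0228), xtr-miR-25 (0.0651) and xtr-miR-15b (0.0855), out of 130 candidates. With 3 libraries, and 3 sibling counts for miR-302 and 7 for miR-15b, this likeness is a description of few values.

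Listing the family under other species changed little. Of 36 entries of any species with these family numbers and enough counts, none was higher and 4 were lower in orphan over sibling, 3 were higher and 4 lower in non-sibling over sibling, and none differed in orphan over non-sibling. Of all 866 entries, 24.8%, 23.3% and 20.7% were called in these comparisons. The 4 lower entries were those of miR-18a-3p in 4 species, each with the same counts, and so repeat 1 measurement. The 3 higher entries were xtr-miR-20b, xla-miR-20 and aca-miR-20b-5p. They had 1242, 1242 and 1241 non-sibling counts and 62 sibling counts each, and so are close to 1 measurement too. The miR-93 entry with the most counts, bta-miR-93, which holds the first base that xtr-miR-93a lacks, had ratios of 1.13 (1.002 to 1.29), 1.34 (1.18 to 1.52) and 0.847 (0.814 to 0.882) in orphan over sibling, non-sibling over sibling and orphan over non-sibling. For the other numbers the entries with most counts were oan-miR-17-5p, at 1.36, 1.36 and 1.01 in these comparisons, age-miR-18, with the counts of xtr-miR-18a-5p, and the Xenopus entries of miR-20b and miR-106 themselves.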

How the data were processed

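Per the file headers, the deposited table holds raw read counts of mature microRNA entries, 1 column per library, not normalized by the authors. It also gives the authors' quantile-normalized counts (a signal over the 3 libraries) and their log2 ratios, as deposited, with an offset that is not stated. Aligner, counter, microRNA release and genome build: not given in the sources used here. A kit for messenger RNA is named in the labels, so the library method is not settled. The 1 unnamed line was left out. Sequences come from that table; no genome positions were analysed here.

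Columns were matched to conditions by the numbers in the sample titles. TMM factors (edgeR 4.0.16, R 4.3.3) from all entries were 0.939 for orphan, 1.30 for non-sibling and 0.820 for sibling. Ratios of scaled counts carry the exact conditional 95% interval (Clopper-Pearson), entries needed a sum of 30 counts, and log2 ratios have 0.5 added to each count. The calculation was tested on simulated counts. Alternatives were total counts, upper-quartile, DESeq2 1.42.0 size factors, TMM on Xenopus sequences or on filtered entries, quantile-normalized values, other filters, a ratio of 1.5 and an offset of 5. Python 3.11.15, numpy 2.4.6, pandas 2.3.3, scipy 1.17.1 and matplotlib 3.10.9 were used. All members are named. The partner and seed lists, the rule for most abundant entries and that for the most like pattern were, like the members, chosen with earlier results of these data known. The seed sum holds sequences with the miR-17 seed at bases 2 to 8 as listed, and hence not miR-93a.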

Additional observations from a re-analysis of the deposited data

How the results depend on the processing

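No paired analysis was possible because each condition had 1 library. The sibling library, with 528 counts over the members, limits both comparisons with it. Entries called in orphan over sibling numbered 1 of 11 listed, 3 under total counts (with miR-20b and its X. laevis entry), 0 with guide arms only, 4 with entries of every species and 3 with a ratio of 1.5. In non-sibling over sibling they numbered 3, or 7 under total counts, 1 under upper-quartile scaling, quantile-normalized values or 5 added counts, and 7 with entries of every species. The changes under total counts in this comparison were miR-17-5p, miR-20a-5p, miR-93a and, against 0 counts, miR-17-3p. In orphan over non-sibling the number was 0 throughout. Total counts move all log2 ratios by 0.20, 0.66 and -0.47 in these comparisons.

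The log2 ratio of the AAAGUGC sum in non-sibling over sibling was 0.60, 1.27 under total counts and 0.35 under upper-quartile scaling. In orphan over non-sibling it was -0.08, -0.55 under total counts, 0.17 under upper-quartile scaling, -0.20 with TMM on Xenopus sequences, -0.15 with TMM on filtered entries, 0.13 with quantile-normalized values and -0.16 with miR-93a added; filtered entries and the addition of miR-93a were chosen after seeing the data. The miR-18 sum was -0.01 in non-sibling over sibling (0.5 added to each count) and 0.66 under total counts, and in orphan over non-sibling 0.25, or -0.21 under total counts, 0.50 under upper-quartile scaling and 0.49 with quantile-normalized values. Partner medians under total counts were 0.46, -0.45 and -0.13. With 1 entry of each kind the miR-18 to miR-17 count ratio was 0.189 in orphan and 0.148 in non-sibling. With identical sequences not merged, miR-93a made up 33.8%, 36.5% and 38.5% in orphan, non-sibling and sibling. Of 214 log2 ratios of single members listed under these alternatives, 184 stayed within the counting interval and 30 did not. The 184 include 27 under the ratio of 1.5, which can change a call but leaves the value as it was. No called value changed sign.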

Other observations

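The 3p arm of miR-20a was not among the Xenopus entries analysed here, and its human entry hsa-miR-20a-3p had 4 counts in the orphan, 1 in the non-sibling and 0 in the sibling library. xtr-miR-428, which has AAGUGCU at bases 2 to 8 like xtr-miR-93a as listed, was chosen after this match was seen. It had 4362 counts in the orphan, 1987 in the non-sibling and 200 in the sibling library, with ratios of 0.731 (0.635 to 0.847) in orphan over sibling, 1.05 (0.905 to 1.22) in non-sibling over sibling and 0.699 (0.662 to 0.737) in orphan over non-sibling, none past 2-fold.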
